A study of Mus musculus with 6 samples.

Results

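The 8 genes described here were Pdcd1, Lag3, Havcr2, Tigit, Ctla4, Cd160 and Entpd1, which encode inhibitory receptors of T cells or, for Entpd1, a cell surface enzyme, together with Tox, which encodes a nuclear factor. They were set by a list of names and not by a threshold on their values, and were 8 of the 31053 genes listed for the transplanted kidneys and of the 28692 listed for the naive kidneys. Single cells of 6 mouse kidneys were sequenced, with 1 library per kidney and 2 kidneys per group. Rejecting kidneys were BALB/c kidneys placed in bilaterally nephrectomized male B6 (C57BL/6) mice that received no further treatment. These kidneys were taken 15 days after transplant and labeled male and 6 to 7 weeks old. The study's methods give that age for the donors, which they describe as male or female. Tolerized kidneys carried the same labels and were taken on the same day, and their recipients had also been infused by vein with ECDI-treated BALB/c splenocytes, which are donor spleen cells exposed to a cross-linking carbodiimide, 7 days before and 1 day after transplant. Naive kidneys were untransplanted kidneys of male C57BL/6 mice aged 10 to 12 weeks. The design asks how far these genes differed between rejecting and tolerized kidneys, in which lymphocytes they were found, and whether they were found in the same cells.

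T cells that have met their antigen put receptors on their surface that dampen further activation, among them PD-1, encoded by Pdcd1, and CTLA-4, encoded by Ctla4. Where antigen persists, as in chronic infection and tumors, CD8 T cells can carry several of these receptors at once, a state known as exhaustion that depends on the factor TOX. Regulatory T cells, which restrain other T cells, express Ctla4 as part of their ordinary program, and natural killer (NK) cells are known to express Cd160.

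Cells were placed in classes by raw counts of unique molecular identifiers (UMIs, each standing for 1 captured transcript) of marker genes, and none of the 8 genes took part. T-like cells had UMIs for at least 2 of 6 T cell genes. CD8 T-like cells had Cd8a or Cd8b1 without Cd4 or Foxp3, CD4 T-like cells had Cd4 without Cd8a, Cd8b1 or Foxp3, and regulatory T-like cells had Foxp3 without Cd8a or Cd8b1. NK-like cells had at least 2 of 6 NK genes and no Cd3d, Cd3e or Cd3g. Part of each class rested on the fewest UMIs its gate allows, and this applied to 54.3% to 61.9% of CD4 T-like cells and to 36.5% to 57.4% of regulatory T-like cells per transplanted kidney. Levels are given as CPM, the UMIs of a gene per 1000000 UMIs of all cells of a class in 1 kidney. Il2ra, which regulatory T cells express and the gates did not use, was at 98.5 to 311 CPM in regulatory T-like cells and at 34.4 to 45.1 in CD4 T-like cells. Ikzf2, another gene of regulatory T cells, was at 1205 to 1621 CPM in regulatory T-like cells and at 75.7 to 138 in CD8 T-like cells. In CD4 T-like cells it lay between them, at 309 to 674.

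The rejecting kidneys yielded 1996 and 1768 CD8 T-like cells and the tolerized kidneys 1047 and 425. CD4 T-like cells numbered 231 and 206 against 151 and 131, regulatory T-like cells 116 and 129 against 230 and 112, and NK-like cells 68 and 104 against 113 and 120. With 2 kidneys against 2, a 2-sided exact permutation test cannot give a p below 0.3333, which it gave for CD8 T-like, CD4 T-like and NK-like cells, while it gave p = 1 for regulatory T-like cells. Total UMIs per kidney were 34874702 to 41562534 for naive, 48111410 to 56837038 for rejecting and 94316013 to 96803926 for tolerized kidneys. The depth of each CD8 T-like cell moved with the groups, with medians of 1606 and 2944 UMIs in rejecting kidneys against 4939 and 5647 in tolerized ones. Rejecting kidney 1 also stood apart in myeloid UMIs. The 8 myeloid marker genes were all detected in the CD8 T-like cells of every transplanted kidney. They summed to 980 CPM in those of rejecting kidney 1, against 220 in rejecting kidney 2 and 127 and 77.4 in the tolerized kidneys. The same list summed to 877, 281, 150 and 93.9 in CD4 T-like cells, to 675, 224, 205 and 98.5 in regulatory T-like cells, and to 1301, 335, 176 and 65.8 in NK-like cells, in the order rejecting 1, rejecting 2, tolerized 1, tolerized 2. The 8 tubule marker genes summed to 243, 96.3, 212 and 425 CPM in CD8 T-like cells in that order, highest in tolerized kidney 2. That kidney was also highest for this list in CD4 T-like (476), regulatory T-like (663) and NK-like cells (650). The CD8 T-like cells of rejecting kidney 1 had the highest median share of mitochondrial UMIs, at 12.5% against 4.90%, 4.14% and 5.48%. The part of any of these in the differences given below was not tested. Transplanted kidneys shared between 18 and 35 cell barcodes per pair, and the naive pair shared 111. A naive and a transplanted kidney shared at most 4.

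The 8 genes lie on 7 chromosomes, with coordinates given for GRCm38 as annotated in GENCODE M21. Pdcd1 spans chr1:94038305-94052553 on the minus strand and Ctla4 spans chr1:60887000-60915832 on the plus strand. The others are Lag3 at chr6:124904361-124911705 (minus), Havcr2 at chr11:46454935-46481255 (plus), Tigit at chr16:43648867-43664146 (minus), Tox at chr4:6686353-6991557 (minus), Cd160 at chr3:96798763-96829351 (minus) and Entpd1 at chr19:40612366-40741602 (plus). Activated T cells switch on several of these genes through NFAT, a factor that calcium signaling from the T cell receptor brings into the nucleus and whose core site reads GGAAA, or TTTCC on the other strand. The 250 bases before a RefSeq start of Pdcd1, Ctla4 and Tigit are shown 5′ to 3′ on the strand of the gene, since these are the genes the comparisons below turn on. They are RefSeq windows on GRCm38.p6 at chr1:94052554-94052803, chr1:60908775-60909024 and chr16:43664185-43664434, and capitals mark each match to the NFAT core. The start used for Ctla4 lies inside the span given above, which begins with another transcript farther upstream.
Pdcd1: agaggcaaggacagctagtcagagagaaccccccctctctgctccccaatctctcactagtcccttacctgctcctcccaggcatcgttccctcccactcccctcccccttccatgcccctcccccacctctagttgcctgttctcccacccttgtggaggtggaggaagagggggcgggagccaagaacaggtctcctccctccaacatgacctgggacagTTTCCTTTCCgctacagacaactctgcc
Ctla4: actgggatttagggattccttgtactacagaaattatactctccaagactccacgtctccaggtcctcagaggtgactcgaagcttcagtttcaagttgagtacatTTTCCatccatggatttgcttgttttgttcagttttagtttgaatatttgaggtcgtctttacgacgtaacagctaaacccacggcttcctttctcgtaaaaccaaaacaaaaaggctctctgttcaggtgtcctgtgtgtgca
Tigit: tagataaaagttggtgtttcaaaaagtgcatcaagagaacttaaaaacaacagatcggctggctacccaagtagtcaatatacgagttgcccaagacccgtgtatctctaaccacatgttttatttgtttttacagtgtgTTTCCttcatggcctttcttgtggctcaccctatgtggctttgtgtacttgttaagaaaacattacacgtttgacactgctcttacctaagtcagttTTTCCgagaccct
The core was matched 2 times before Pdcd1, with both matches side by side, 1 time before Ctla4 and 2 times before Tigit. Among windows not shown, that of Havcr2 had 0 matches, those of Cd160 had 1 and 0, and those of Entpd1 had 0 and 2. Such a short motif is common, and 55.6% of the 32851 windows in the RefSeq table held at least 1 match. AAAGGTCA or its reverse complement TGACCTTT, a site of the NR4A factors that T cell receptor signals induce, was in 1.34% of windows and in none of those found for Pdcd1, Havcr2, Tigit, Ctla4, Cd160 and Entpd1. A match is a match of letters only.

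Between classes, each of the 8 genes had its own order. Classes were compared in 1 edgeR quasi-likelihood fit of 16 sums (4 classes in each of 4 transplanted kidneys) with the kidney as a block, and p values were adjusted by the Benjamini-Hochberg method over 7051 genes. A gene is called where the adjusted p is under 0.05. Log2 values are edgeR fits ± a standard error. That error was derived as the absolute log2 value over the square root of the F statistic of its test. Values of 4 kidneys follow the order rejecting 1, rejecting 2, tolerized 1, tolerized 2.

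Pdcd1 was highest in CD8 T-like cells. Rejecting kidneys held 622 and 789 CPM, and tolerized kidneys 545 and 348. CD4 T-like cells held 337, 508, 348 and 232 in the same order of kidneys, and were lower than the CD8 T-like cells in each of the 4. The fitted difference was a log2 of −0.79 ± 0.14 (adjusted p = 0.000104 by edgeR), and DESeq2 did not call it (adjusted p = 0.330). Regulatory T-like cells came lower still, at 67.7, 159, 85.2 and 60.6, a log2 of −2.02 ± 0.18 against CD4 T-like cells (edgeR adjusted p = 4.47e-09). In NK-like cells Pdcd1 gave 4, 0, 1 and 0 UMIs in all.

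Lag3, a receptor that binds MHC class II, ran in a similar order in part. CD8 T-like cells held 444, 290.2, 259 and 212, and CD4 T-like cells 356, 397, 191 and 126. These 2 classes were not separated at the threshold (log2 −0.35 ± 0.15, edgeR adjusted p = 0.0985), and CD4 T-like cells were lower in 3 of 4 kidneys. Regulatory T-like cells held 164, 264, 145 and 100.4, below both other T-like classes in every kidney (log2 −1.02 ± 0.16 against CD8 and −0.67 ± 0.17 against CD4 T-like cells, edgeR adjusted p = 1.3e-05 and 0.0078). The second of these was lost without rejecting kidney 1 (edgeR adjusted p = 0.0956). NK-like cells gave 1, 0, 2 and 0 UMIs of Lag3.

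Ctla4 ran the other way. Regulatory T-like cells held 771, 1248, 777 and 777, CD4 T-like cells 252, 780.3, 258 and 255, and CD8 T-like cells 180.1, 286, 133 and 106.5. Every step of this order held in all 4 kidneys. The step from CD8 to CD4 T-like cells was a log2 of 0.95 ± 0.15 and that from CD4 to regulatory T-like cells 1.30 ± 0.15 (edgeR adjusted p = 2.32e-05 and 7.63e-07). The CD4 T-like cells of rejecting kidney 2, which held the most Ctla4 of the 4, also held the most Ikzf2, and the part of regulatory T cells without a Foxp3 UMI in this class was not tested. NK-like cells gave 0, 1, 5 and 1 UMIs of Ctla4.

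Tox did not separate CD8 from CD4 T-like cells. The levels were 560.5, 264, 279.8 and 259 in CD8 T-like cells and 779, 331, 380.4 and 218 in CD4 T-like cells, a log2 of 0.17 ± 0.12 (edgeR adjusted p = 0.395). Regulatory T-like cells held 348, 186, 146 and 172, which was lower than in CD8 T-like cells in 4 of 4 kidneys (log2 −0.86 ± 0.13, edgeR adjusted p = 1.3e-05) and lower than in CD4 T-like cells in 4 of 4 (log2 −1.02 ± 0.14, edgeR adjusted p = 5.4e-06). NK-like cells, which use Tox in their development, held 130.1, 54.5, 44.5 and 34.8 and were below CD8 T-like cells in every kidney (log2 −2.57 ± 0.18, edgeR adjusted p = 1.52e-11).

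Cd160, a receptor for the herpesvirus entry mediator Tnfrsf14, was shared by CD8 T-like and NK-like cells. CD8 T-like cells held 142, 131, 79.5 and 96 CPM and NK-like cells 61.2, 96.4, 108 and 94.8. No difference passed the threshold between these 2 classes (log2 −0.19 ± 0.17, edgeR adjusted p = 0.457), and NK-like cells were higher in 1 of 4 kidneys. CD4 T-like cells held 25.6, 35, 19.6 and 21.9, a log2 of −2.23 ± 0.18 against CD8 T-like cells (edgeR adjusted p = 1.72e-10). Among regulatory T-like cells, Cd160 gave 1, 1, 0 and 1 UMIs in all.

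Entpd1 encodes CD39, an enzyme that breaks down extracellular ATP and is known on regulatory T cells. Regulatory T-like cells held 75, 57.2, 45.9 and 47.4, and CD8 T-like cells 40.6, 42.3, 44.9 and 32.2. Although regulatory T-like cells were higher in 4 of 4 kidneys, the difference did not pass (log2 0.28 ± 0.19, edgeR adjusted p = 0.336). CD4 T-like cells held 24.1, 38.1, 9.82 and 21.9, below regulatory T-like cells in every kidney by a log2 of 1.20 ± 0.26 (edgeR adjusted p = 0.00215) and below CD8 T-like cells by 0.92 ± 0.22 (edgeR adjusted p = 0.00253). The difference from CD8 T-like cells was lost without tolerized kidney 1 (edgeR adjusted p = 0.0824), and both were lost under stricter gates (adjusted p = 0.398 against CD8 T-like and 0.456 between regulatory and CD4 T-like cells). NK-like cells held 45.9, 29.4, 25.8 and 30.9, lower than CD8 T-like cells in 3 of 4 kidneys. They did not differ from CD8 T-like cells at the threshold (edgeR adjusted p = 0.327).

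Havcr2 and Tigit gave few UMIs. Havcr2 encodes TIM-3 and was at 38.1, 43.8, 42.5 and 28.4 in CD8 T-like cells against 21.1, 31.8, 30.7 and 6.10 in CD4 T-like cells, which were lower in 4 of 4 kidneys (log2 −0.91 ± 0.20, edgeR adjusted p = 0.00119). Regulatory T-like cells held 14.5, 14.9, 13.1 and 7.58. Tigit, a receptor for the adhesion protein Pvr, was at 27.45, 18.5, 9.26 and 6.31 in CD8 T-like, at 45.2, 22.2, 8.59 and 4.88 in CD4 T-like, and at 41.1, 12.4, 15 and 15.2 in regulatory T-like cells. None of the 3 comparisons among these T-like classes passed for Tigit (edgeR adjusted p = 0.405 to 0.877), nor did NK-like against CD8 T-like cells (0.0556). Its UMIs numbered 30, 14, 7 and 4 in CD4 T-like cells and 17, 5, 16 and 8 in regulatory T-like cells.

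**Figure D1:**
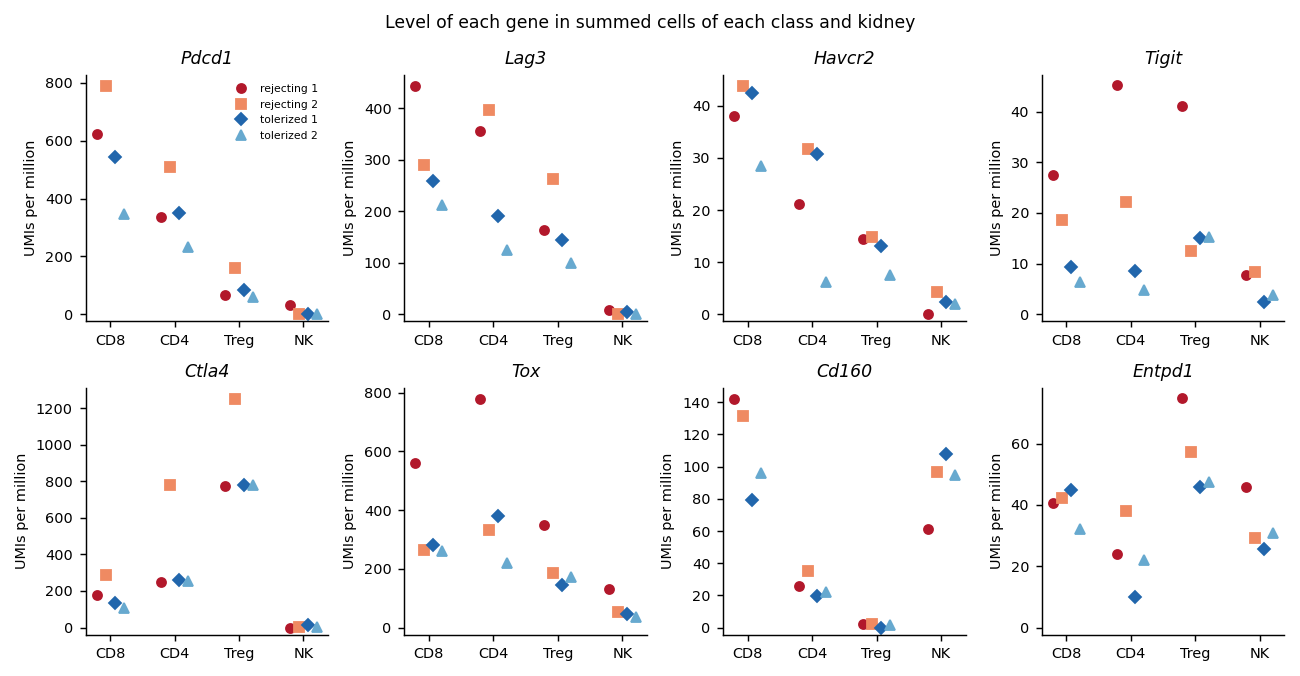
Level of each of the 8 genes (vertical axis, CPM, linear and of its own scale in each panel) in the summed CD8 T-like, CD4 T-like, regulatory T-like (Treg) and NK-like cells; each point is 1 kidney and colors mark the kidneys. Pdcd1 and Cd160 are highest in CD8 T-like cells in most kidneys, Ctla4 in regulatory T-like cells in every kidney, and Tox stands high in rejecting kidney 1 in all 4 classes.

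Counted over the list, 5 of 8 genes differed between CD4 and CD8 T-like cells (1 higher and 4 lower), where 20.2% of all genes tested differed (10.4% higher and 9.73% lower). Between regulatory and CD8 T-like cells 6 of 8 differed (1 higher and 5 lower), where 24% of all genes did (12.1% and 11.9%). All 5 of the 8 that differed between NK-like and CD8 T-like cells were lower, where 23.5% of all genes differed (10.9% higher and 12.6% lower). Regulatory and CD4 T-like cells differed in 6 of 8 (2 higher and 4 lower), where 9.84% of all genes did (4.86% and 4.98%). Medians of the 8 log2 differences were −0.57, −0.94, −3.30 and −0.79 in the same order, where the medians over all genes lay between −0.02 and −0.00. The large fitted values of NK-like cells rest on classes with 0 to 5 UMIs per gene and kidney and depend on the prior count of the fit.

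Tubule-like cells served as background, since renal epithelium is not known to express T cell receptors of this kind. Pdcd1 stood there at 6.02, 3.39, 0.603 and 0.277 CPM and Tox at 6.58, 1.49, 0.603 and 0.498, in both genes highest in rejecting kidney 1. Myeloid-like cells reached 41.6, 54.1, 39 and 44.8 for Havcr2 and 78.4, 93.6, 82.5 and 80.6 for Entpd1, both of which macrophages are known to express. The corresponding levels in tubule-like cells were 0.262 to 0.762 for Havcr2 and 0.420 to 0.762 for Entpd1.

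Rejecting and tolerized kidneys were compared within each class, with 2 kidneys against 2. Most of the 8 genes were fitted lower in tolerized kidneys, and none passed the threshold in any class by edgeR. In CD8 T-like cells 7 of 8 were fitted lower, as were 48.6% of all genes, none was called, as was 0% of the 10864 genes tested, and 2 (Tigit and Ctla4) had an unadjusted p under 0.05, as did 6.65% of genes. Both tolerized kidneys lay below both rejecting kidneys for 5 of the 8, and for 32% of all genes. The median of the 8 log2 differences was −0.47, and that of all genes was 0.01. Log2 values are tolerized minus rejecting after TMM normalization, and the unnormalized levels printed here sit lower in tolerized kidneys by a further log2 of 0.07 to 0.18, depending on the class. Because cells of a class were summed, fewer cells that express a gene and less RNA of it per cell cannot be told apart in these sums.

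Tigit had the lowest p of the 8 genes in CD8 T-like cells. With levels of 27.45 and 18.5 in rejecting against 9.26 and 6.31 in tolerized kidneys (142, 113, 54 and 18 UMIs), the groups did not overlap. The fitted difference was −1.36 ± 0.31 (adjusted p = 0.475 by edgeR). In CD4 T-like cells it was −2.14 ± 0.55 (edgeR adjusted p = 0.291), again without overlap. Leaving out single kidneys took Tigit from −1.70 to −1.10 in CD8 T-like cells and from −2.57 to −1.48 in CD4 T-like cells. Without the filter on low counts it was called in CD8 T-like cells (edgeR adjusted p = 0.00535), among 271 genes called by that fit. With the replicate number as a block it was called in CD4 T-like cells (edgeR adjusted p = 0.00947), among 111 genes called by that fit.

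Ctla4 did not overlap either in CD8 T-like cells, at 180.1 and 286 against 133 and 106.5, a difference of −0.81 ± 0.29 (adjusted p = 0.646 by edgeR). It overlapped in CD4 T-like cells, where rejecting kidney 2 alone was high at 780.3 and the other 3 kidneys lay between 252 and 258. In regulatory T-like cells the same kidney held 1248 and the other 3 lay between 771 and 777. Leaving out rejecting kidney 2 turned the fitted direction in CD4 T-like cells from −0.81 to 0.18 and in regulatory T-like cells from −0.20 to 0.13. Without rejecting kidney 1, the fitted difference in Ctla4 was −1.14 in CD8 T-like cells and −1.37 in CD4 T-like cells.

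Pdcd1 and Lag3 were lower in both tolerized than in both rejecting kidneys in CD8 T-like cells, with differences of −0.51 ± 0.29 for Pdcd1 and −0.47 ± 0.26 for Lag3 (adjusted p = 0.747 and 0.742 by edgeR). Neither was called when any 1 kidney was left out. Among CD4 T-like cells, Pdcd1 overlapped (−0.37 ± 0.27, adjusted p = 0.712). Lag3 did not overlap there, at 356 and 397 against 191 and 126, with −1.08 ± 0.25 (adjusted p = 0.232 by edgeR). Leaving out single kidneys took Lag3 in CD4 T-like cells from −1.34 to −0.84. With the replicate number as a block Lag3 was called there (edgeR adjusted p = 0.0256), among 111 genes called by that fit.

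In CD8 and CD4 T-like cells, the fitted difference in Tox rested on 1 kidney. Rejecting kidney 1 held the highest level in all 4 lymphocyte classes, at 560.5, 779, 348 and 130.1 in CD8 T-like, CD4 T-like, regulatory T-like and NK-like cells. Rejecting kidney 2 was within the range of the tolerized kidneys in CD8 T-like cells (264 against 279.8 and 259) and in CD4 T-like cells (331 against 380.4 and 218). With both rejecting kidneys, the fitted difference was −0.44 ± 0.33 in CD8 T-like cells and −0.74 ± 0.39 in CD4 T-like cells (adjusted p = 0.801 and 0.608 by edgeR). Without rejecting kidney 1 it was 0.15 and 0.07, and without rejecting kidney 2 it was −0.85 and −1.24. In regulatory T-like and NK-like cells the groups did not overlap, with −0.61 ± 0.31 and −0.99 ± 0.45 (adjusted p = 0.815 and 0.750 by edgeR). Leaving out single kidneys took these from −1.02 to −0.02 and from −1.59 to −0.35. Both tolerized kidneys also lay below both rejecting kidneys for 28% of all genes tested in regulatory T-like cells and 24% in NK-like cells. Rejecting kidney 1 had the shallowest CD8 T-like cells, with the most myeloid UMIs and the highest mitochondrial share, as given above.

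Cd160 was lower in both tolerized kidneys in CD8 T-like cells (142 and 131 against 79.5 and 96, −0.48 ± 0.22, adjusted p = 0.739 by edgeR), and in NK-like cells it was fitted higher, at 0.41 ± 0.34 (adjusted p = 0.906). Havcr2 and Entpd1 overlapped between the groups in CD8 T-like cells, with −0.04 ± 0.26 and 0.06 ± 0.24 (adjusted p = 0.979 and 0.970 by edgeR). Leaving out single kidneys took Havcr2 from −0.38 to 0.20 and Entpd1 from −0.22 to 0.26 there.

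In the other classes, too, none of the 8 genes passed by edgeR. All 8 genes were fitted lower in CD4 T-like cells, where 50.5% of 6789 genes were fitted lower and 0.0147% were called. There, 2 of 8 (Lag3 and Tigit) had an unadjusted p under 0.05 against 8.62% of genes, and 4 of 8 did not overlap with the tolerized kidneys lower against 32.1%. Of the 8, 5 were abundant enough to be tested in regulatory T-like cells and 3 in NK-like cells, and all 5 and 2 of the 3 were fitted lower, against 50.1% and 49.1% of all genes. Called were 0% of 5584 and 0.0227% of 4413 genes, and 1 of the 8 had an unadjusted p under 0.05 in each (Lag3 and Tox) against 6.38% and 6.41% of genes. Counting members not tested as well, both tolerized kidneys were lower for 5 of 8 in regulatory T-like and 2 of 8 in NK-like cells. The same held for 28% and 24% of the genes tested in these classes. Over all T-like cells the 8 were fitted lower without exception, against 48.5% of all genes, from −1.30 ± 0.29 for Tigit to −0.02 ± 0.21 for Entpd1. None was called, as was 0% of 11709 genes, and 3 (Tigit, Cd160 and Lag3) had an unadjusted p under 0.05 against 7.34% of genes. Both tolerized kidneys were lower for 4 of the 8 and for 31.8% of genes. By edgeR, none of the 8 changed differently in CD4 T-like, regulatory T-like or NK-like cells than in CD8 T-like cells (0.0993%, 0% and 0.0851% of genes called). An unadjusted p under 0.05 was given by 1 of the 8 in each contrast: Lag3 (−0.64 ± 0.27), Ctla4 (0.57 ± 0.26) and Cd160 (0.87 ± 0.33). Their adjusted p were 1, 0.863 and 1. The share of all genes under that unadjusted p was not counted for these contrasts. In myeloid-like cells, 6 of the 8 were tested and fitted lower (50.7% of 12423 genes), among them Havcr2 (−0.13 ± 0.20) and Entpd1 (−0.01 ± 0.16). Havcr2 and Entpd1 stood higher there than in tubule-like cells, the other class gated outside the lymphocytes. Of the 6, 0 were called by edgeR (0% of genes), and 4 had an unadjusted p under 0.05 (6.19% of genes). Those 4 were Pdcd1, Lag3, Ctla4 and Tox, at 10.2 and 2.14 against 0.535 and 0.603 CPM for Pdcd1, and rejecting kidney 1 was also highest in Pdcd1 in tubule-like cells. DESeq2 and the fit without a filter called Pdcd1 lower in myeloid-like cells (log2 −3.39 and −3.38, adjusted p = 0.0243 and 0.0211). The 6 T cell marker genes, all detected in the myeloid-like cells of each kidney, were also lower there in both tolerized kidneys, at 156 and 35 against 15.3 and 23.2 CPM in sum, and their part was not tested.

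**Figure D2:**
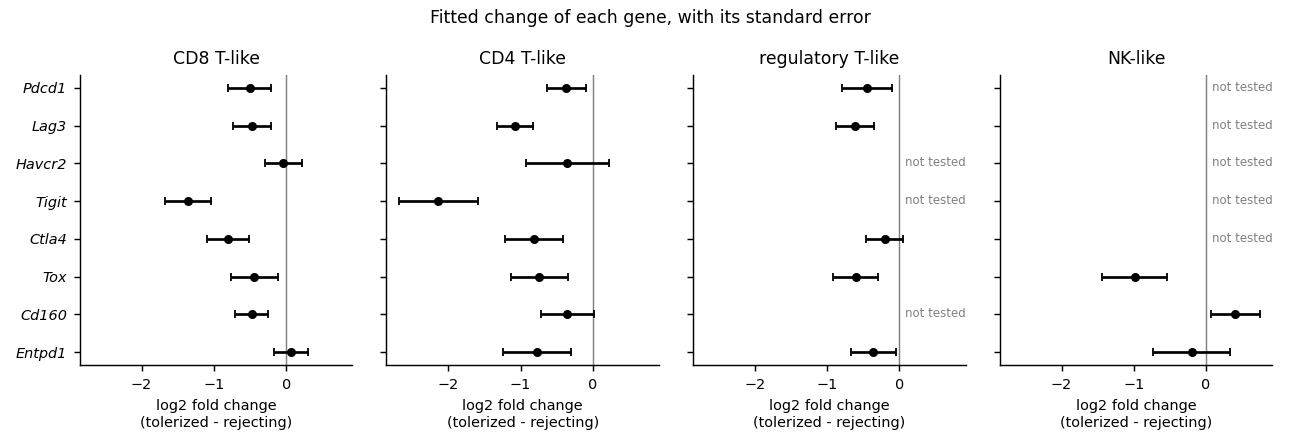
Fitted log2 fold change (horizontal axis, tolerized minus rejecting) of each of the 8 genes in the 4 lymphocyte classes, n = 2 kidneys per group. Bars are standard errors derived from the F statistic of the test. In CD8 T-like cells 7 of the 8 points lie left of 0, with Tigit farthest at −1.36, and no point passed an adjusted p of 0.05.

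Detection within single cells depends on depth, so the share of cells with a UMI is given at 1000 UMIs per cell, as the exact expectation over every way of drawing 1000 UMIs from each cell. Cells below 1000 UMIs were left out, which removed 508, 38, 8 and 6 CD8 T-like cells. Thinning applies no TMM factor, so these shares sit on the scale of the unnormalized levels. In CD8 T-like cells that scale moved tolerized minus rejecting differences by a log2 of −0.16. In raw CPM, both tolerized kidneys lay below both rejecting kidneys for 32% of all genes tested in this class. The same count for detection shares of all genes was not made. Pdcd1 was detected in 43.6% and 52.1% of the CD8 T-like cells of rejecting kidneys against 39.1% and 28.6% of those of tolerized ones, with no overlap of the groups. In tubule-like cells the same gene was found in 0.864%, 0.356%, 0.106% and 0.0314%. Lag3 was found in 35.1%, 23.9%, 22.4% and 19.3%, and Ctla4 in 16.6%, 23.6%, 12.1% and 10.9% of CD8 T-like cells, also without overlap, and the background in tubule-like cells reached 0.622% and 0.308%.

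Tox was detected in 41.7% of the CD8 T-like cells of rejecting kidney 1 (95% exact binomial interval 39.2% to 44.3%), and in 21.7%, 23.6% and 23.6% in the other 3. The same kidney was high per cell and in the sums. Cd160 was found in 11.8% and 11.1% against 6.64% and 7.72%, and Tigit in 3% and 1.83% against 1.05% and 0.749%, both without overlap. Havcr2 (2.41% to 3.53%) and Entpd1 (3.63% to 5.14%) overlapped. Intervals cover counting error only and not the spread between kidneys.

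**Figure D3:**
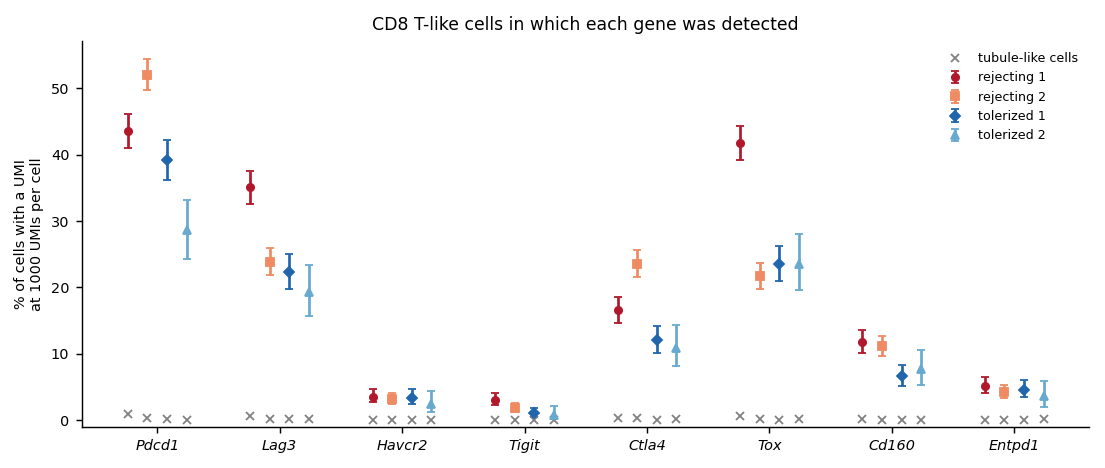
Share of CD8 T-like cells with a UMI of each gene at 1000 UMIs per cell (vertical axis, percent); colored points are kidneys with 95% exact binomial intervals, which cover counting error only, and gray crosses are tubule-like cells of the same kidneys. Pdcd1, Lag3, Ctla4, Tigit and Cd160 are lower in both tolerized kidneys, Tox is high in rejecting kidney 1 alone, and all crosses lie below 1%.

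Several of the 8 genes were often found in the same CD8 T-like cell. At least 2 of them were detected in 49.8% (47.2% to 52.4%) and 43.1% (40.7% to 45.4%) of CD8 T-like cells in the rejecting kidneys and in 32.3% (29.5% to 35.3%) and 26.4% (22.3% to 31.0%) in the tolerized kidneys, with 95% exact binomial intervals. The means were 46.4% ± 4.75 (SD, n = 2) and 29.4% ± 4.15 (SD, n = 2). Their difference was −17.0 percentage points, with an exact permutation p of 0.3333, the smallest this design allows. These shares carry no TMM factor, and the part of the general shift of unnormalized levels in this difference was not tested. The difference kept its direction at 500 UMIs (−11.2) and at 2000 UMIs per cell (−15.2). It turned at full depth, where tolerized cells hold more UMIs and the shares were 71.0% and 80.1% against 84.5% and 77.9% (5.64 points). At least 3 genes were detected in 22.0% and 15.2% against 9.09% and 7.35% of cells, and none in 19.2% and 20.5% against 30.2% and 38.1%.

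The share was lower in both tolerized kidneys in the other T-like classes too. At least 2 genes were detected in 39.5% and 47.5% of CD4 T-like cells of rejecting kidneys and in 26.8% and 17.1% of those of tolerized kidneys. Regulatory T-like cells gave 29.1% and 36.5% against 19.9% and 16.3%. Ctla4, with or without others of the genes, was found in 50.01% and 65.1% of them against 47.9% and 43.1%. NK-like cells stayed at 3.65%, 0.456%, 1.04% and 1.19%, and the share of tubule-like cells with at least 1 of the 8 genes was 2.79%, 0.916%, 0.469% and 0.624%.

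**Figure D4:**
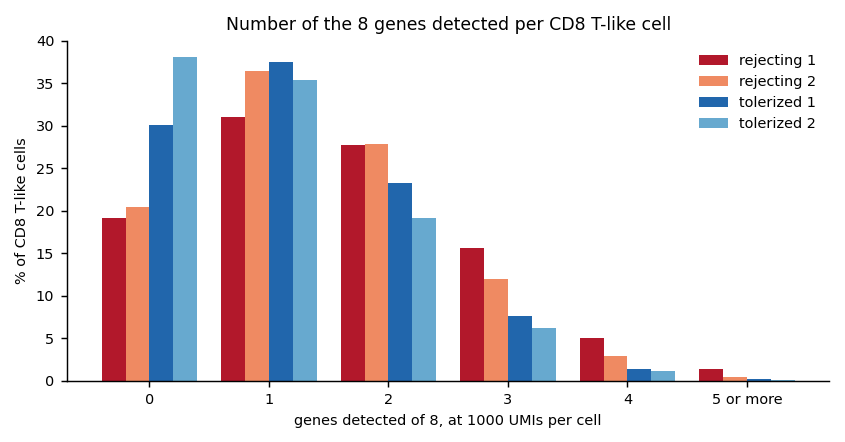
Share of CD8 T-like cells (vertical axis, percent, from 0) by the number of the 8 genes detected per cell at 1000 UMIs (horizontal axis); each bar is 1 kidney, with no error drawn. Cells with none of the genes make up 19.2% and 20.5% in rejecting kidneys against 30.2% and 38.1% in tolerized ones, and cells with 3 or more are more frequent in both rejecting kidneys.

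Pairs of genes were then compared with what their separate shares would give if they were spread over CD8 T-like cells independently. Of the 28 pairs, 9 had at least 5 such expected cells in every transplanted kidney, and 8 of these were found together more often than expected in all 4 kidneys. Lag3 with Ctla4 had the widest range, 1.19 to 1.495 times the expected number of cells. Pdcd1 was found with Lag3 at 1.11 to 1.30 times, with Ctla4 at 1.07 to 1.31 times and with Tox at 1.07 to 1.18 times. The exception was Pdcd1 with Cd160, at 0.951 to 1.01 times and above 1 in 1 of 4 kidneys. The median over the 9 pairs was 1.14. These ratios are descriptions of cells that share a kidney. The same ratios were not computed for pairs of other genes, so the count is not shown to be particular to these 8. No pair in CD4 T-like cells and 1 in regulatory T-like cells (Ctla4 with Tox, median 1.08) had enough expected cells.

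**Figure D5:**
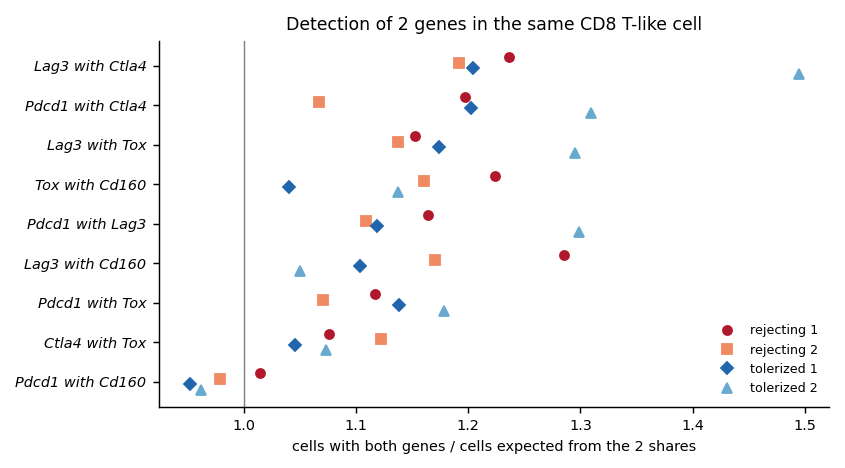
Number of CD8 T-like cells with both genes of a pair over the number expected from their separate shares (horizontal axis, ratio at 1000 UMIs per cell), for the 9 pairs with at least 5 expected cells in every kidney; points are kidneys and the gray line marks 1. All 4 points lie right of 1 for 8 pairs, and Pdcd1 with Cd160 lies around 1.

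Other genes differed between CD8 T-like cells with at least 2 of the 8 genes and those with none. Each cell was weighted by its probability of falling in either set at 1000 UMIs, and levels come from all its UMIs. Of 16 transcription factors linked to T cell activation and exhaustion, 10 were higher in the cells with at least 2 of the genes in all 4 transplanted kidneys and 1 was lower in all 4. Among the 7223 genes at 10 CPM or more in these cells, the 8 left out, 24.1% were higher and 12.3% lower in all 4, and all 16 factors reached that level. The lower one was Tcf7, which marks T cells with the capacity to renew, at 56.4 against 29.2, 64.2 against 36.6, 53.6 against 18.4 and 88.1 against 38.7 CPM (none against at least 2 genes). Nr4a2, a nuclear receptor induced by T cell receptor signals, went from 282 to 574, from 328 to 589, from 264 to 533.5 and from 162.5 to 389. Nr4a3 was 1.74 to 2.21 times and Tox2, a relative of Tox, 1.82 to 2.57 times as high. Tox2 had a mean of 6.36 CPM in cells with none against 13.86 in cells with at least 2. It thus reached 10 CPM only through cells that held some of the 8 genes. The other 7 higher ones were Nfatc1, Irf4, Prdm1, Batf, Tbx21, Ikzf2 and Nr4a1. The genes named here and in the next paragraph were chosen after their values were seen.

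Of 14 further inhibitory receptors, 8 reached 10 CPM over all the cells counted. Of these, 7 were higher and 0 lower in all 4 kidneys in cells with at least 2 of the genes. Among all genes at that level, 24.1% were higher and 12.3% lower, as given above. Below that level, Pvrig was higher and Klrg1 and Lair1 were lower in all 4 kidneys. The ratio was 1.83 to 2.47 for Cd200r1, 1.44 to 1.86 for Klrc1 and 1.39 to 1.56 for Cd101. Cells with none of the genes had median depths of 3074, 3002, 5035 and 5960 UMIs, and cells with at least 2 had 1970, 2953, 4904 and 5362, so rejecting kidney 1 differed most in depth between the sets. The part of depth in these ratios was not tested.

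Between classes, 3 of the 10 further receptors that could be tested were higher and 3 lower in CD4 than in CD8 T-like cells, and 7 of 15 transcription factors were higher and 3 lower (edgeR, adjusted p under 0.05), where 10.4% of all genes were higher and 9.73% lower. Between regulatory and CD8 T-like cells these counts were 3 and 3 for receptors and 6 and 5 for factors (12.1% and 11.9% of all genes). NK-like against CD8 T-like cells gave 2 and 6 for receptors and 6 and 6 for factors (10.9% and 12.6%), and regulatory against CD4 T-like cells 2 and 1 for receptors and 3 and 6 for factors (4.86% and 4.98%). With the lowest p among receptors, Cd244, a receptor of cytotoxic cells, was lower in CD4 than in CD8 T-like cells by a fitted log2 of −6.11 ± 0.31 (edgeR adjusted p = 3.1e-14), with 2, 1, 0 and 1 UMIs in CD4 T-like cells. Klrg1, a receptor for cadherins, was higher in regulatory than in CD8 T-like cells by a log2 of 5.14 ± 0.33 (edgeR adjusted p = 2.33e-12). Cd244 had a lower p in that comparison and was lower in regulatory T-like cells (−6.325 ± 0.34, edgeR adjusted p = 6.5e-14). Maf, a factor of helper and regulatory T cells, was higher in CD4 than in CD8 T-like cells by 3.51 ± 0.19 (edgeR adjusted p = 7.62e-14).

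The same lists were set against rejecting and tolerized kidneys over all T-like cells. Of the further receptors, 12 of 14 were tested and 0 were called, with a median log2 of −0.20. The receptors with the lowest p were Cd101 (31.9 and 26.3 against 17.3 and 14.1 CPM, −0.73 ± 0.22, adjusted p = 0.522 by edgeR) and Klrg1, which was high in tolerized kidney 1 alone (9.52, 8.01, 38.3 and 8.09). All 16 transcription factors were tested and 0 called, with a median of 0.16, where all genes had 0.01. Maf lay higher in both tolerized kidneys (95.4 and 133.7 against 174.9 and 191, 0.82 ± 0.24) and Nr4a3 lower (79.6 and 83.6 against 56.3 and 49.1, −0.48 ± 0.20), with adjusted p of 0.522 and 0.668 by edgeR.

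Ligands of these receptors were measured in myeloid-like cells, where 14 of 15 were tested, 0 were called and the median log2 was −0.17. Cd274, which encodes the PD-1 ligand PD-L1 and was added after its values were seen, was at 75.7 and 95.6 in rejecting kidneys against 59.3 and 68.9 in tolerized ones. Pdcd1lg2, which encodes the other PD-1 ligand, was at 30.3 and 35.4 against 24.95 and 20.35 (−0.47 ± 0.18, adjusted p = 0.806 by edgeR). Neither ligand overlapped. Both tolerized kidneys also lay below both rejecting kidneys for 24% of the 12423 genes tested in myeloid-like cells. Ceacam1 ran the other way, at 13.4 and 18.0 against 23.6 and 45.1 (1.18 ± 0.35, adjusted p = 0.773 by edgeR).

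The genes most like each of the 8 were sought by the correlation of log2 levels over the 16 sums of classes and kidneys, among 5550 genes. These sums share kidneys and classes, so the values are descriptions without a test. Pdcd1 was most like Lag3 (r = 0.96) and Rbpj, and Lag3 was most like Atxn1 (r = 0.98), Adam19 and Pdcd1. Ctla4 was most like Cd6 (r = 0.97), Camk4 and Bmyc, Tox like Zap70 (r = 0.92), Susd3 and Atxn1, and Cd160 like Xcl1 (r = 0.98), Bcl2 and Ms4a4b. The closest genes were Izumo4 (r = 0.93) for Havcr2, Hspa1a (r = 0.87) for Tigit and Itih5 (r = 0.85) for Entpd1.

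Naive kidneys held few T-like cells, 32 and 40 in all, of which 16 and 12 were CD8 T-like, 0 and 1 CD4 T-like and none regulatory T-like. They also differed from the grafts in strain, age and the genes listed, and so were not compared by a test. Over all their T-like cells Pdcd1 gave 5 and 1 UMIs and Cd160 44.7 and 74.4 CPM, where 3 UMIs would amount to 44.7 and 31.9. Havcr2 and Tigit gave 0 UMIs in both, which allows a level up to those amounts.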

How the data were processed

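Kidneys were dissociated into single cells and sequenced on a droplet platform with 1 library per kidney. The authors deposited raw UMI counts per gene and cell, made with Cell Ranger on mm10 (version 3.0.1 per the file headers of the transplanted kidneys, which list 31053 genes, while the naive kidneys list 28692). The genes and lists were chosen with earlier results of these data known.

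Barcodes needed 500 UMIs and 250 genes or more, and no more than 50% of mitochondrial UMIs. Likely doublets were left out by ranking Scrublet scores within each kidney at 0.8% per 1000 barcodes, which removed 450 to 1256 barcodes per kidney and left 5608 to 10483 cells. Cells were placed in classes by raw marker UMIs without clustering. Counts were summed per class and kidney, so that n = 2 kidneys per group. Replicates are separate kidneys by their labels. The study marks its kidneys by 2 experiment numbers, and describes samples of the groups as processed at the same time and in the same way. The labels do not say that a replicate number marks an experiment, so the number entered as a block only in an alternative. Sums with at least 10 cells were tested by edgeR 4.0.16 (quasi-likelihood test, TMM, filterByExpr; R 4.3.3), and p values were adjusted (Benjamini-Hochberg) across every gene of the fit. DESeq2 1.42.0 was an alternative. The fits were tested on simulated data.

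Detection was compared at 1000 UMIs per cell as an expectation over all draws (scipy 1.17.1), a choice made after single draws were seen to differ. Its Clopper-Pearson 95% intervals cover counting error only. Genes named were the 8 in full, the 2 of each list with the lowest p between rejecting and tolerized kidneys, and the 3 most alike by Pearson's r on log2 CPM among genes with a mean of at least 20 CPM, of which 1 is not reported here. Other genes were named after their values were seen. Alternatives were another test, normalization, filter, doublet rule, cell filter and gate, a replicate block and leaving out each kidney.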

Additional observations from a re-analysis of the deposited data

Results flagged for a closer look

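In raw levels, Tigit ran in opposite directions between classes in the 2 groups. In CD4 T-like minus CD8 T-like cells the difference was 17.74 and 3.71 CPM in the rejecting kidneys, and −0.669 and −1.43 CPM in the tolerized kidneys. In regulatory T-like minus CD4 T-like cells it was −4.08 and −9.82 CPM in the rejecting and 6.39 and 10.28 CPM in the tolerized kidneys. That every kidney of a group went the same way was not itself tested. The model term for a different change in CD4 than in CD8 T-like cells was a log2 of −0.76 ± 0.57 (edgeR adjusted p = 1). These levels rest on 4 to 30 UMIs of Tigit per kidney in CD4 T-like cells and 5 to 17 in regulatory T-like cells. At such counts the CD4 minus CD8 differences of the tolerized kidneys are too small for their direction to be established.

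Tubule-like cells of the naive kidneys, which entered no comparison, held 31 and 23 UMIs of Lag3 and 7 and 5 UMIs of Tox. These were found among 21472724 and 16463124 UMIs of 4186 and 3654 cells. Tubule-like cells are the class used as background above, and whether they express either gene was not tested.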

How the results depend on the processing

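With 2 kidneys per group, no exact test could pass 0.05, and which genes were called between rejecting and tolerized kidneys depended on the test and on single kidneys. Levels of Tigit, Havcr2 and most of the NK-like values rest on few UMIs. Detection was thinned as an expectation because single draws of tolerized kidney 1 ranged from 28.8% to 35.2% over 100 draws, and 1 draw gave a difference of −18.5 points in place of −17.0. For the 8 genes between classes, 330 values kept direction and side of the threshold, 5 lost and 4 gained a call and 5 turned. Between rejecting and tolerized kidneys, 414 kept both, 19 gained a call and 21 turned, and of the differences between classes in that change 218 kept both and 22 turned. The causes were not tested.

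Genes called between rejecting and tolerized kidneys numbered 0 in all T-like cells, and 57 by DESeq2, 34 without a filter and 1 to 129 when 1 kidney was left out. They numbered 0 in CD8 T-like cells, and 40 by DESeq2, 271 without a filter and 93 to 357 with 1 kidney left out. In CD4 T-like cells there was 1, and there were 18 by DESeq2, 38 without a filter, 0 with doublets kept, 0 at 1000 UMIs and 60 to 125 with 1 kidney left out. Regulatory T-like cells had 0, and 8 by DESeq2, 96 without a filter and 18 to 105 with 1 kidney left out. NK-like cells had 1, and 2 by DESeq2, 51 without a filter, 17 with doublets kept, 0 at 1000 UMIs and 9 to 128 with 1 kidney left out. Myeloid-like cells had 0, and 64 by DESeq2, 61 without a filter and 0 to 93 with 1 kidney left out. Where 1 kidney of a group remained, it was assumed to vary like the other group.

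Replicate numbers were not taken to pair the kidneys: the labels do not say that a number marks 1 of the 2 experiments, and deviations of same-numbered kidneys correlated between −0.2 and 0.0106 by class. With the replicate block, 5 genes were called in all T-like, 0 in CD8 T-like, 111 in CD4 T-like, 11 in regulatory T-like, 6 in NK-like and 1 in myeloid-like cells, and with crossed numbers 9 in all T-like and 7 in myeloid-like cells. The block called Lag3 (adjusted p = 0.0256) and Tigit (adjusted p = 0.00947) in CD4 T-like cells by edgeR.

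Between classes, stricter gates called 278 genes for CD4 against CD8 T-like, 512 for regulatory against CD8 T-like, 315 for NK-like against CD8 T-like and 129 for regulatory against CD4 T-like cells, and leaving out 1 kidney 957 to 1269, 1144 to 1640, 1167 to 1545 and 398 to 674. Stricter gates turned Lag3 in CD4 against CD8 T-like cells (0.28) and Cd160 in regulatory against CD4 T-like cells (0.26). For the difference in change, genes called were 0 by DESeq2, 32 without a filter and 0 to 25 with 1 kidney left out for CD4 T-like, 16 and 0 to 53 (no filter and 1 kidney left out) for regulatory T-like, and 1, 21 and 1 to 13 for NK-like against CD8 T-like cells.

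The share of CD8 T-like cells with at least 2 of the genes was 5.64 points higher in tolerized kidneys without thinning, and −20.4 to −13.7 with 1 kidney left out. The number of NK-like cells turned under stricter gates (−9.5), and that of regulatory T-like cells ranged from −10.5 to 107.5 with 1 kidney left out. Log2 values that turned were those of Entpd1 in all T-like cells (0.0245 at 1000 UMIs, 0.0642 with stricter gates) and Havcr2 in CD8 T-like cells (0.10 at 20% mitochondrial UMIs). The difference in the tolerized against rejecting change also turned for Cd160 between CD4 and CD8 T-like cells (−0.0292 at 20% mitochondrial UMIs). With doublets kept, that difference in change turned for Lag3 (−0.77) and Havcr2 (0.89) between NK-like and CD8 T-like cells.

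Across kidneys left out, log2 values in all T-like cells went for Havcr2 from −0.80 to 0.11, Ctla4 from −0.63 to 0.29, Tox from −1.03 to 0.000272 and Entpd1 from −0.26 to 0.14. In CD8 T-like cells they went for Havcr2 from −0.38 to 0.20, Tox from −0.85 to 0.15 and Entpd1 from −0.22 to 0.26. In CD4 T-like cells they went for Havcr2 from −1.84 to 0.35, Ctla4 from −1.37 to 0.18 and Tox from −1.24 to 0.074. In regulatory T-like cells they went for Pdcd1 from −0.89 to 0.25 and Ctla4 from −0.47 to 0.13. In NK-like cells they went for Entpd1 from −0.55 to 0.083. In myeloid-like cells they went for Havcr2 from −0.31 to 0.084 and Entpd1 from −0.14 to 0.13. Between classes, for CD4 T-like against CD8 T-like cells, they went for Tigit from −0.11 to 0.31. Between classes, for regulatory T-like against CD4 T-like cells, they went for Tigit from −0.093 to 0.40. Differences in change for CD4 T-like against CD8 T-like cells went for Havcr2 from −1.54 to 0.16, Ctla4 from −0.30 to 0.61, Tox from −0.63 to 0.021 and Cd160 from −0.12 to 0.40. Differences in change for regulatory T-like against CD8 T-like cells went for Pdcd1 from −0.28 to 0.53, Lag3 from −0.78 to 0.43, Tox from −0.40 to 0.058 and Cd160 from −4.39 to 0.18. Differences in change for NK-like against CD8 T-like cells went for Pdcd1 from −6.12 to 4.63, Lag3 from −4.47 to 5.05, Havcr2 from −0.69 to 4.79, Tigit from −0.65 to 0.70 and Entpd1 from −0.67 to 0.17.

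Stricter gates could not be fitted for rejecting against tolerized CD4 T-like, regulatory T-like and NK-like cells or for the difference in change, and left 4 sums out between classes.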
